A study of Mus musculus with 6 samples.

Results

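Collagens are the structural proteins that make up most of the fibrous matrix of an artery wall, and each is built from chains encoded by separate genes. The genes described here are those whose platform symbol has the collagen chain form, Col followed by a type number, the letter a and a chain number, as in Col1a1. Membership followed the symbol, although members, classes and lists were chosen with earlier results of these data known. In all, 42 of 18193 named genes met this form, carried by 82 probe sets, each a group of short probes that reports 1 transcript. The brightest probe set of a gene, by its mean over the 6 arrays, stood for the gene, and the other 40 probe sets served as support. By class, 11 genes encode fibrillar chains, 9 network chains, 9 FACIT chains (fibril-associated collagens with interrupted triple helices) and 13 other chains.

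The tissue was the caudal artery, which supplies the tail, taken from mice 4 weeks old (P28). Arteries of mice with an intact receptor gene, Notch3+/+, were compared with those of mice that lack it, Notch3-/-. Each genotype was represented by 3 biological replicates, each a pool of arteries from 4, 3 and 3 mice in Notch3+/+ replicates 1 to 3 and from 4 mice in every Notch3-/- replicate, so the spread between single animals is not seen. The labels give neither the targeted allele nor the strain or sex of the mice.

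Collagen chains wind in trimers around one another into a rope-like helix, which the cell hydroxylates and folds before export. Outside the cell, fibrillar collagens are trimmed, packed into fibrils and cross-linked, and they give the adventitia and media of an artery their tensile strength. Network collagens form sheets, of which type IV is the scaffold of the basement membrane around each smooth muscle cell and under the endothelium, while FACIT collagens coat the surface of fibrils. Notch3 is a signalling receptor found mainly on the smooth muscle of arteries, and the comparison asks what differs in an artery that lacks it.

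Values are log2 expression values after RMA, on which 1 unit is a doubling of signal. Changes are Notch3-/- minus Notch3+/+, tested with limma across the 27027 probe sets whose mean reached the 40th percentile, with Benjamini-Hochberg adjustment and a threshold of 0.05. Notch3 itself read between 9.94 and 10.09 in the Notch3+/+ pools and between 5.87 and 6.51 in the Notch3-/- pools, so each array matched its label on this transcript. The arrays correlated at r from 0.990 to 0.996 across probe sets, and the first principal component (45.2% of the variance) set Notch3-/- replicate 2 apart from the rest. The smooth muscle markers Acta2, Tagln and Myh11 had means of 13.23, 12.94 and 12.03. In bulk arteries, fewer cells of a type and less RNA per cell cannot be told apart. With 3 pools per genotype an exact permutation test of a single gene cannot give a p below 0.1, so tests rest on the fit across all features.

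No collagen gene passed the threshold in either direction. Of the 42 genes, 34 lay above the level filter and were tested, and 0 of them were called higher and 0 lower with limma, against 41 of all 12732 genes tested (0.322%). Their adjusted p ran from 0.241 for Col20a1 to 0.990 for Col13a1. At an unadjusted p under 0.05 stood 7 of the 34 (20.6%), 1 higher and 6 lower, against 11.9% of all genes, of which 7.1% were higher and 4.81% lower. The 7 were Col11a1, which was higher, and Col27a1, Col4a3, Col4a4, Col20a1, Col18a1 and Col25a1, which were lower.

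Changes were small. The 34 changes ran from -0.44 (1.36-fold lower) for Col4a4 to 0.21 (1.16-fold higher) for Col4a5. None exceeded 0.5 in size, but few genes did, 334 of all 12732 tested. Dimmer probe sets of Col4a3 and Col20a1 did exceed it, each at -0.64. The 95% interval of the change lay within 1.5-fold in either direction for 29 of the 34 (85.3%), against 88.3% of all genes tested, and reached beyond it for Col4a4, Col4a6, Col12a1, Col20a1 and Col18a1. The median change was -0.067, with 22 of 34 negative (64.7%), beside a median of -0.0033 over all genes tested, of which 50.5% were negative. All Notch3-/- pools lay below all Notch3+/+ pools for 5 collagen genes (14.7%, against 7.88% of all genes) and above them for 4 (11.8%, against 9.46%).

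**Figure D1:**
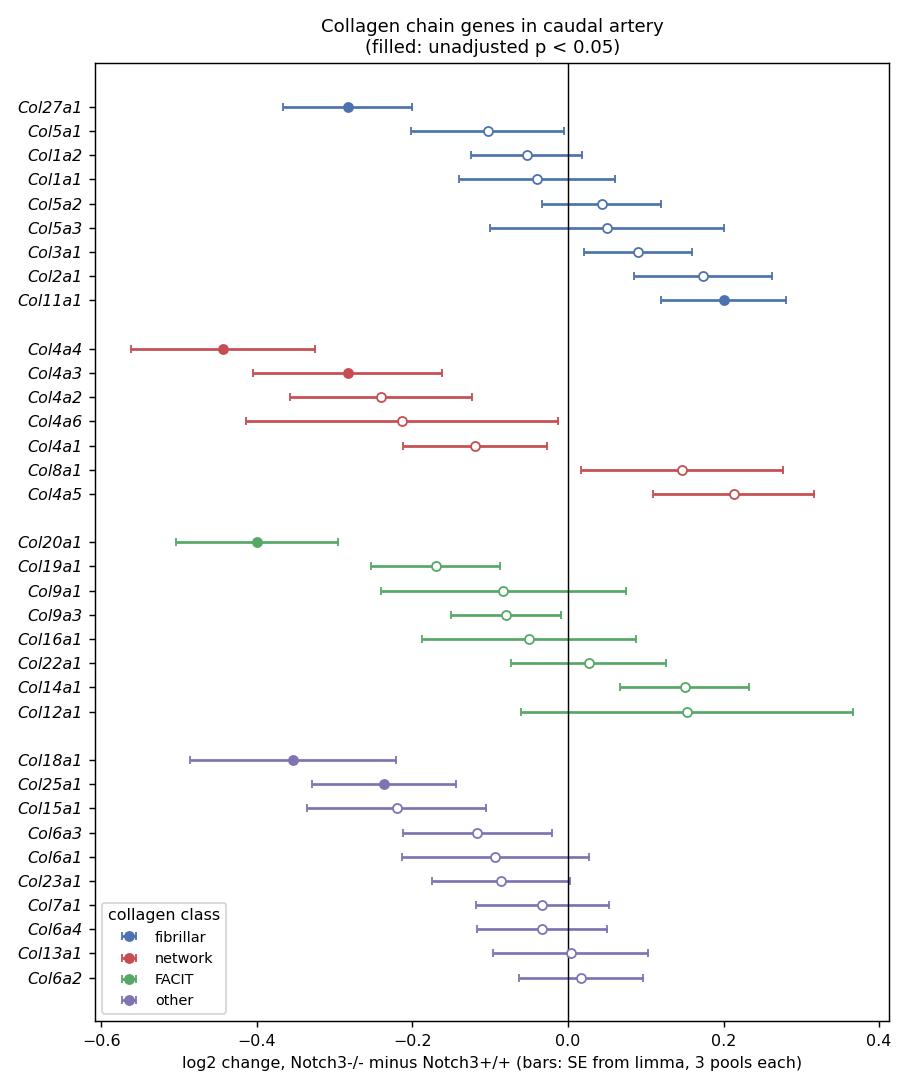
Change of each of the 34 tested collagen genes in log2 units (Notch3-/- minus Notch3+/+, horizontal axis), grouped by class, with the standard error from limma over 3 pools of each genotype. Filled points have an unadjusted p under 0.05, 1 to the right of 0 and 6 to the left, and no gene passed the adjusted threshold.

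The lower median depended most on 1 pool. Notch3-/- replicate 2, the array set apart on the first principal component, held the lowest of the 6 values for 14 of the 34 collagen genes (41.2%), against 26.6% of all genes. With each gene centred on its own mean, the collagen median per pool was 0.0058, 0.051 and 0.025 in Notch3+/+ replicates 1 to 3 and 0.085, -0.10 and -0.037 in Notch3-/- replicates 1 to 3. The genotypes therefore overlapped, with Notch3-/- replicate 1 the highest pool of all. Without Notch3-/- replicate 2 the median change was -0.0050 and 0 genes were called, and without Notch3-/- replicate 1 it was -0.11. The single lower genes rested less on replicate 2. Of the 6 at an unadjusted p under 0.05, only Col20a1 had its lowest value in that pool. Without it, 6 collagen genes stood at an unadjusted p under 0.05 in limma, but not all were the same genes. They included Col12a1, then higher at 0.42, which did not stand there over all pools.

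Fibrillar collagens, the rope-forming chains, had changes near 0 as a class. Of 11 genes, 9 were tested, 5 positive and 4 negative, with 0 called and a median of 0.043, which turned to -0.0086 after a further quantile normalization. One of them was higher and 1 lower at an unadjusted p under 0.05. All 9 intervals lay within 1.5-fold.

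The main chains of arterial fibrils differed little. Col1a1, a chain of type I collagen, read 13.22, 13.27 and 13.19 in the Notch3+/+ pools and 13.33, 13.00 and 13.23 in the Notch3-/- pools. The groups overlapped, with the lowest value in Notch3-/- replicate 2, and the change was -0.04 (SE 0.10, 95% interval -0.27 to 0.19). Its partner chain Col1a2 read 13.37, 13.38 and 13.34 against 13.34, 13.26 and 13.33, a change of -0.053 (SE 0.072, interval -0.22 to 0.11).

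Col3a1, which forms type III collagen alone, read 13.24, 13.25 and 13.21 in Notch3+/+ and 13.31, 13.32 and 13.34 in Notch3-/- pools. All 3 Notch3-/- values were above all 3 Notch3+/+ values, yet the change was 0.09 (SE 0.070) with an adjusted p of 0.649 in limma. All 3 chains sat at the top of the intensity range, whose highest value was 13.38 and where differences can be compressed. Dimmer probe sets of the same genes gave -0.05 for Col1a1, 0.08 for Col3a1, and 0.037 and -0.14 for Col1a2. The first of these Col1a2 values came from a probe set that was itself above 13 and whose Notch3-/- pools were all above the Notch3+/+ pools. Type V chains, which start fibrils and set their width, had changes of -0.10 for Col5a1, 0.043 for Col5a2 and 0.05 for Col5a3, with adjusted p of 0.707 or more in limma.

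Col27a1 had the smallest p of the fibrillar class. It encodes a fibrillar chain best known from cartilage. It read 7.09 in each of the 3 Notch3+/+ pools and 6.89, 6.85 and 6.68 in the Notch3-/- pools, so the groups did not overlap. The change was -0.28 (1.22-fold lower, SE 0.083), with an unadjusted p of 0.0103 and an adjusted p of 0.291 in limma. A second Col27a1 probe set gave -0.08.

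Chains typical of cartilage were dim and did not pass. Col2a1, the main fibrillar collagen of cartilage, read 5.26, 5.37 and 5.47 against 5.63, 5.52 and 5.47, a change of 0.17 (adjusted p 0.515 in limma) with groups that met at 5.47. Col11a1, whose chain joins type II collagen in cartilage fibrils, read 5.87, 5.69 and 5.77 in Notch3+/+ and 5.97, 6.02 and 5.94 in Notch3-/- pools, a change of 0.20 (SE 0.080, adjusted p 0.416 in limma). Its other probe set, which was as bright to within 0.01, gave 5.95, 5.92 and 6.27 against 6.01, 5.47 and 5.63, a change of -0.34. The direction of Col11a1 is therefore not settled by these data. Of 10 cartilage and bone markers on a fixed list, 9 were found and 4 tested, with Matn1, Hapln1, Ibsp, Matn3 (0.24) and Dmp1 (-1.36) below the filter. Their summed linear level ran from 3330 to 3632 in the Notch3+/+ pools and from 2651 to 3017 in the others. Most of that sum was Cytl1, whose change was -0.33, while Acan had -0.057, Sox9 -0.14 and Sp7 0.047, and the median of the 4 centred markers overlapped between genotypes. The part of these cells in the collagen values was not tested.

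**Figure D2:**
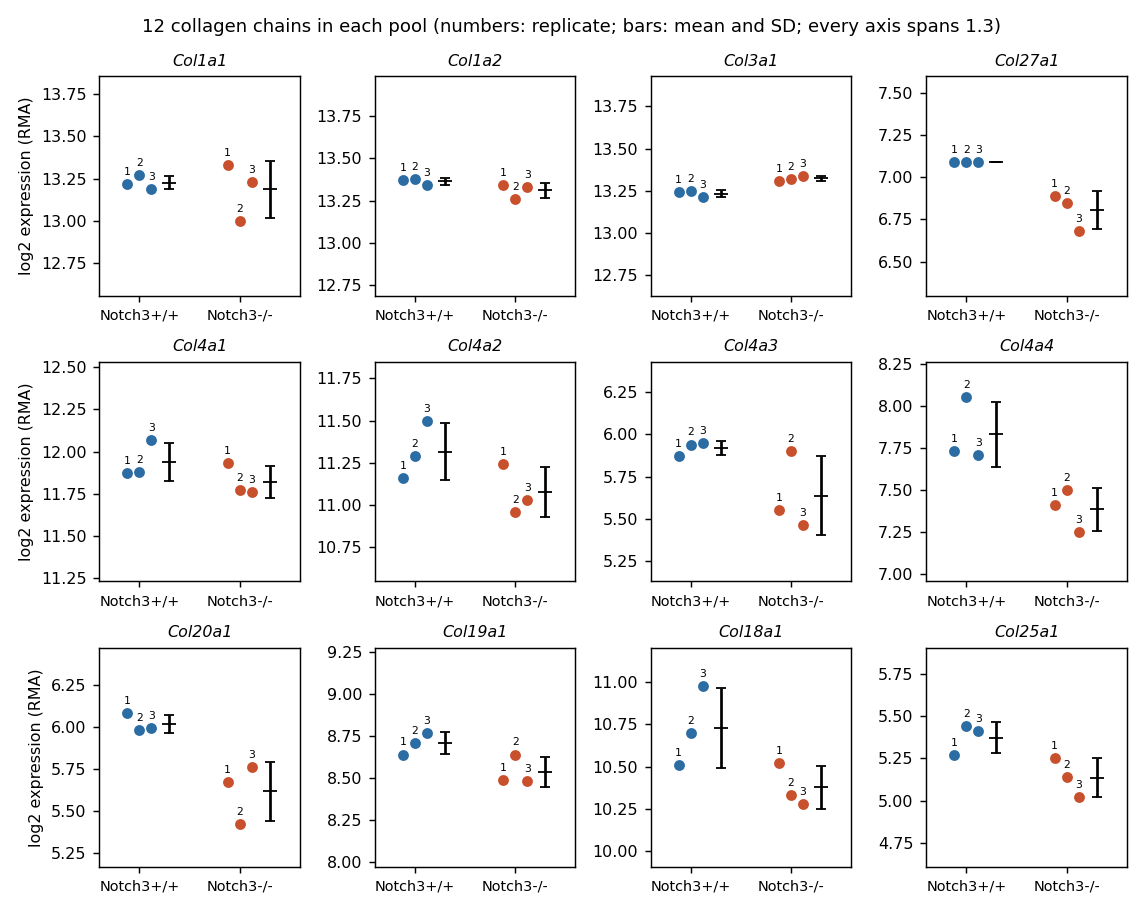
Log2 expression (RMA) of 12 collagen chains in each pool, with replicate numbers, the mean and the SD of 3 pools beside the points; every vertical axis spans 1.3 units. Col1a1 and Col4a1 overlap between genotypes, whereas all Notch3-/- pools lie below all Notch3+/+ pools for Col27a1, Col4a4, Col20a1 and Col25a1.

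Network collagens had the lowest median of the 4 classes. Of 9 genes, 7 were tested, 5 negative and 2 positive, with a median of -0.21 and 0 called. Without Notch3-/- replicate 2 that median was -0.095. The members at an unadjusted p under 0.05 were Col4a3 and Col4a4, the minor type IV chains known from the basement membranes of kidney and inner ear.

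Col4a4 had the largest change of the 34 genes. It read 7.73, 8.05 and 7.71 in the Notch3+/+ pools and 7.41, 7.50 and 7.25 in the Notch3-/- pools. Every Notch3-/- pool was below every Notch3+/+ pool. The mean went from 7.83 ± 0.19 to 7.39 ± 0.13 (SD, n = 3), a change of -0.44 (SE 0.12, interval -0.72 to -0.17) with an adjusted p of 0.250 in limma. Its 2 other probe sets gave -0.26 and -0.44.

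Col4a3 read 5.87, 5.94 and 5.95 against 5.55, 5.90 and 5.46. Notch3-/- replicate 2 lay within the Notch3+/+ range and the other two Notch3-/- pools below it. The change was -0.28 (SE 0.12), with an unadjusted p of 0.0495 and an adjusted p of 0.438 in limma. A dimmer Col4a3 probe set read 5.40, 5.66 and 5.41 against 4.80, 4.96 and 4.78, with no overlap and a change of -0.64 (SE 0.10, 1.56-fold lower), and its adjusted p was 0.0747 in limma. Leaving out 1 pool at a time gave adjusted p from 0.194 to 0.768 for the brighter Col4a3 probe set and from 0.283 to 0.619 for Col4a4 in limma.

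Col4a3 and Col4a4 lie head to head on the chromosome and are transcribed away from a shared stretch, which is shown here because both genes were among the 7 at an unadjusted p under 0.05. In RefSeq (GRCm38.p6), 71 bases separate the Col4a4 start of the promoter table from the first base of Col4a3, at chr1:82586850-82586920, given 5′ to 3′ on the minus strand, toward Col4a4.
Col4a4 and Col4a3 stretch: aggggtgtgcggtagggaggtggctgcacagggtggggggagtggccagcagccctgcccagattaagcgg
Its G and C content was 69.0%. None of 4 motifs searched on both strands was present in it, namely TGGGAA (the core bound by RBPJ, the DNA-binding partner of Notch), GGGCGG (GC box), CCAAT and TATAAA. RefSeq held promoter windows of 300 bases, from 250 before to 50 after the start, for 33 of the 42 collagen genes, in 36 windows. TGGGAA was in 10 of them (27.8%), against 25.6% of all 32851 windows, GGGCGG in 61.1% against 35.7%, CCAAT in 36.1% against 37.4% and TATAAA in 13.9% against 13.6%. The stretch is much shorter than a window, so the absence of a motif from it cannot be set against these shares. A match or its absence describes these letters only.

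The major type IV chains, which every basement membrane contains, also share a promoter region, and their windows overlap by 78 bases. Col4a1 read 11.87, 11.88 and 12.07 in Notch3+/+ and 11.93, 11.77 and 11.76 in Notch3-/- pools, a change of -0.12 (SE 0.093, interval -0.34 to 0.10). Col4a2 read 11.16, 11.29 and 11.50 against 11.24, 10.96 and 11.03, a change of -0.24 (SE 0.12, interval -0.51 to 0.033) and an adjusted p of 0.496 in limma. For both chains the groups overlapped, with Notch3+/+ replicate 3 highest and Notch3-/- replicate 1 within the Notch3+/+ range. The second Col4a1 probe set gave -0.21.

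The neighbours Col4a5 and Col4a6 did not share a sign. Col4a5, the partner of Col4a3 and Col4a4 in their shared trimer, read 8.62, 8.82 and 8.98 against 9.00, 9.06 and 9.00, a change of 0.21 (SE 0.10, adjusted p 0.493 in limma). All Notch3-/- pools were above the Notch3+/+ pools on this probe set, but the other Col4a5 probe set gave -0.11. Col4a6, which lies beside it, had a change of -0.21 (SE 0.20), with Notch3-/- replicate 2 far below the rest at 5.91 against 6.54 to 6.76. Without that pool the Col4a6 change was 0.033. Col8a1, a short-chain collagen made by vascular cells, had changes of 0.15, 0.10 and 0.03 on its 3 probe sets. Col8a2 and the cartilage chain Col10a1 were below the level filter.

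FACIT collagens included Col20a1, which held the lowest adjusted p of all collagen genes. Of 9 genes, 8 were tested, 3 positive and 5 negative, with a median of -0.065, 1 at an unadjusted p under 0.05 and 0 called. Without Notch3-/- replicate 2 the median was 0.0067.

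Col20a1, a little-studied fibril-associated chain, read 6.08, 5.98 and 5.99 in Notch3+/+ and 5.67, 5.42 and 5.76 in Notch3-/- pools. The groups did not overlap. The mean went from 6.02 ± 0.06 to 5.62 ± 0.18 (SD, n = 3), a change of -0.40 (SE 0.10, 1.32-fold lower), with an unadjusted p of 0.0055 and an adjusted p of 0.241 in limma. The name of this brightest probe set carries the suffix _s_at, which marks probes that can match more than 1 transcript. A dimmer Col20a1 probe set read 5.39, 5.28 and 5.46 against 4.76, 4.62 and 4.84, a change of -0.64 (SE 0.092, 1.56-fold lower). Its adjusted p of 0.057 in limma was the smallest of all 63 collagen probe sets tested, and did not pass. The other tested probe set gave -0.35.

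Col19a1, a chain of basement membrane zones, read 8.64, 8.71 and 8.77 against 8.49, 8.64 and 8.48. The groups met at 8.64, the change was -0.17 (SE 0.083, adjusted p 0.496 in limma), and 2 further probe sets gave -0.24 and -0.22. Col14a1, which coats fibrils in connective tissue, was on the positive side, at 9.96, 9.99 and 9.99 against 10.25, 10.10 and 10.04, with no overlap. Its change was 0.15 (SE 0.083, adjusted p 0.538 in limma), the same to 2 decimals on each of its 3 probe sets.

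Col12a1, another coat protein of fibrils, was the FACIT chain on which a single pool weighed most. It read 9.23, 9.43 and 9.45 in Notch3+/+ and 9.83, 8.99 and 9.75 in Notch3-/- pools, so that the genotype without Notch3 held both the highest values and the lowest. The change was 0.15 (SE 0.21) over all pools and 0.42 without Notch3-/- replicate 2, and neither passed. Col16a1 (-0.05), Col22a1 (0.027), Col9a1 (-0.083) and Col9a3 (-0.08) had adjusted p of 0.685 or more in limma. Col9a2 was below the level filter.

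Among the other collagens, Col18a1, a multiplexin of basement membranes, had the most negative change. Of 13 genes in this class, 10 were tested, 2 positive and 8 negative, with a median of -0.09, 2 at an unadjusted p under 0.05 and 0 called.

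Col18a1, the source of the fragment endostatin, read 10.51, 10.70 and 10.98 in Notch3+/+ and 10.52, 10.33 and 10.28 in Notch3-/- pools. Notch3-/- replicate 1 lay level with the lowest Notch3+/+ pool and the others lay below it. The change was -0.35 (SE 0.13, 1.28-fold lower), with an unadjusted p of 0.03 and an adjusted p of 0.391 in limma. Its second probe set gave -0.34 with no overlap between genotypes. Col15a1, the other multiplexin, read 9.28, 9.40 and 9.52 against 9.38, 9.02 and 9.14, a change of -0.22 (SE 0.12, adjusted p 0.521 in limma) with overlapping groups.

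Most endothelial markers also had lower levels in the Notch3-/- pools. Of 10 markers, 8 were negative, with a median of -0.25 and 0 called in limma (4 had an unadjusted p under 0.05). Their summed linear level ran from 5471 to 5886 in Notch3+/+ pools and, without overlap, from 4593 to 5256 in those without Notch3. Pecam1 and Nos3 each had -0.47. For Pecam1, Notch3-/- replicate 2 was far below the rest at 9.27, against 9.99 and 9.94 in the other Notch3-/- pools. Vwf (-0.05) and Kdr (-0.053) changed little, and the 2 positive markers were Emcn (0.20) and Tek (0.09). For Tek all Notch3-/- pools lay above all Notch3+/+ pools. The part of endothelial cells in the type IV, XV and XVIII values was not tested.

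Type VI chains, which form beaded filaments around cells, differed little. Col6a1 read 11.44, 11.55 and 11.45 against 11.58, 11.14 and 11.44, a change of -0.093 (SE 0.12, interval -0.37 to 0.19). Its partners Col6a2 and Col6a3 had changes of 0.017 and -0.12. The second Col6a2 probe set, whose suffix _x_at marks probes that can cross-hybridise, gave -0.22. Col6a4 had a change of -0.033 and Col6a5 was below the level filter.

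Of the chains that span the cell membrane, Col25a1 stood at an unadjusted p under 0.05. It read 5.27, 5.44 and 5.41 in Notch3+/+ and 5.25, 5.14 and 5.02 in Notch3-/- pools, all just below the Notch3+/+ range. The change was -0.24 (SE 0.092) with an adjusted p of 0.406 in limma. Col13a1 (0.0033) and Col23a1 (-0.087) had adjusted p of 0.725 or more. The anchoring fibril chain Col7a1 of skin had a change of -0.033. Col17a1 and Col26a1, like Col11a2 and Col24a1 of the fibrillar class, were below the filter, and the 8 genes left out for level had means from 1.96 to 3.65.

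Where a gene had several probe sets, they mostly agreed in sign. Of 29 support probe sets tested, 23 had the sign of the brightest one, and 0 were called in limma, against 0.252% of all probe sets tested. The exceptions were 1 probe set each of Col11a1, Col4a5, Col6a2, Col1a2, Col5a1 and Col23a1. Of the 63 collagen probe sets tested, 41 were negative, 12 had all Notch3-/- pools below all Notch3+/+ pools (19.0%, against 7.75% of all probe sets tested), and 5 had them above (7.94%, against 8.43%). Probe sets of 1 gene share their RNA and are not replicates.

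**Figure D3:**
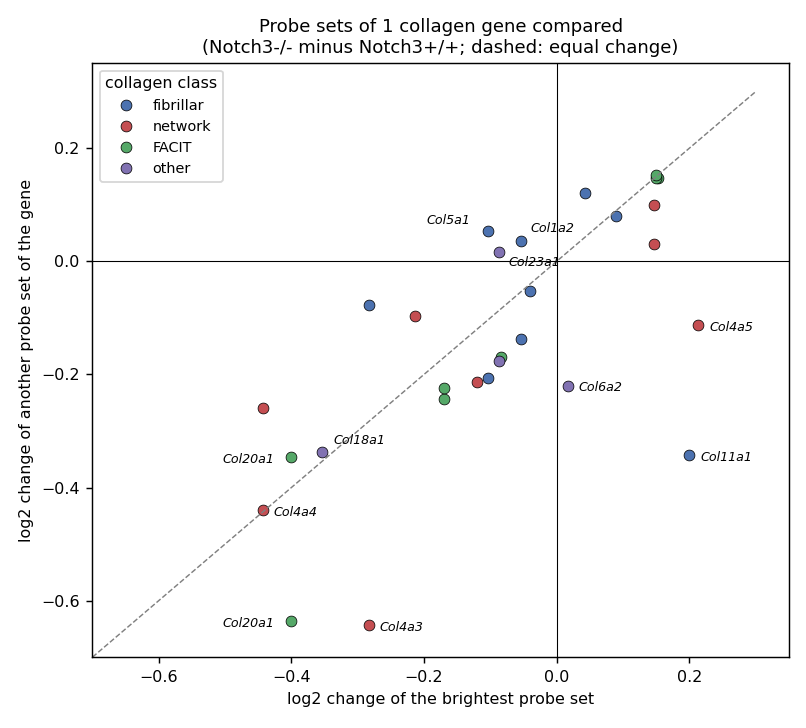
Log2 change (Notch3-/- minus Notch3+/+) of each of the 29 tested support probe sets (vertical axis) against that of the brightest probe set of its gene (horizontal axis), coloured by class. Most points lie in the same sign quadrant, Col11a1 lies farthest from the dashed line of equal change, and dimmer probe sets of Col4a3 and Col20a1 reach -0.64.

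Chains that assemble into a common trimer can be set side by side. The type I pair had -0.04 and -0.053, the major type IV pair -0.12 and -0.24, and the type VI chains between -0.12 and 0.017. The trimer of Col4a3, Col4a4 and Col4a5 was mixed on the brightest probe sets, at -0.28, -0.44 and 0.21. The other Col4a5 probe set gave -0.11. These are descriptions, and no difference between chains was tested.

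Adventitial fibroblast markers had higher levels in the Notch3-/- pools, while the fibrillar medians overlapped between genotypes. Fibroblasts of the outer wall are a main source of types I and III collagen. All 10 markers found were positive, with a median of 0.18. Of these markers Dpt was called, against 0.322% of all genes tested, a call lost whenever 1 pool was left out. Their summed linear level ran from 12418 to 13942 in the Notch3+/+ pools and from 14554 to 16134 in the others, so the groups did not overlap. The smooth muscle markers summed to 25264 to 29460 and 27672 to 28277, and overlapped. Single members of that list went both ways, 4 of 8 positive and 4 negative, with 0 called in limma. At an unadjusted p under 0.05 stood 37.5% of them, against 11.9% of all genes. All Notch3-/- pools lay above all Notch3+/+ pools for Cnn1 (0.51) and below them for Smtn (-0.58) and Myocd (-0.39). Of the other lists, the mast cell (median 0.76 over 7), macrophage and leukocyte (0.51 over 10) and keratinocyte (0.18 over 4) markers were on the positive side, the tendon markers split 2 and 2 (median 0.19), and the skeletal muscle (-0.27 over 11), adipocyte (-0.14 over 6) and Schwann cell and nerve (-0.18 over 5) markers on the negative side, with 0 of these called by their brightest probe set in limma, although a dimmer probe set of the macrophage marker C1qb was called. Medians per pool of the centred markers overlapped between genotypes for the mast cell, macrophage and leukocyte, tendon, skeletal muscle and adipocyte lists. They did not for the keratinocyte and the Schwann cell and nerve lists. Among skeletal muscle markers, Notch3-/- replicate 2 held the lowest value for all 11, while Notch3-/- replicate 3 had the highest median of the 6 pools (0.43). What part the cells of these lists had in the collagen values was not tested.

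**Figure D4:**
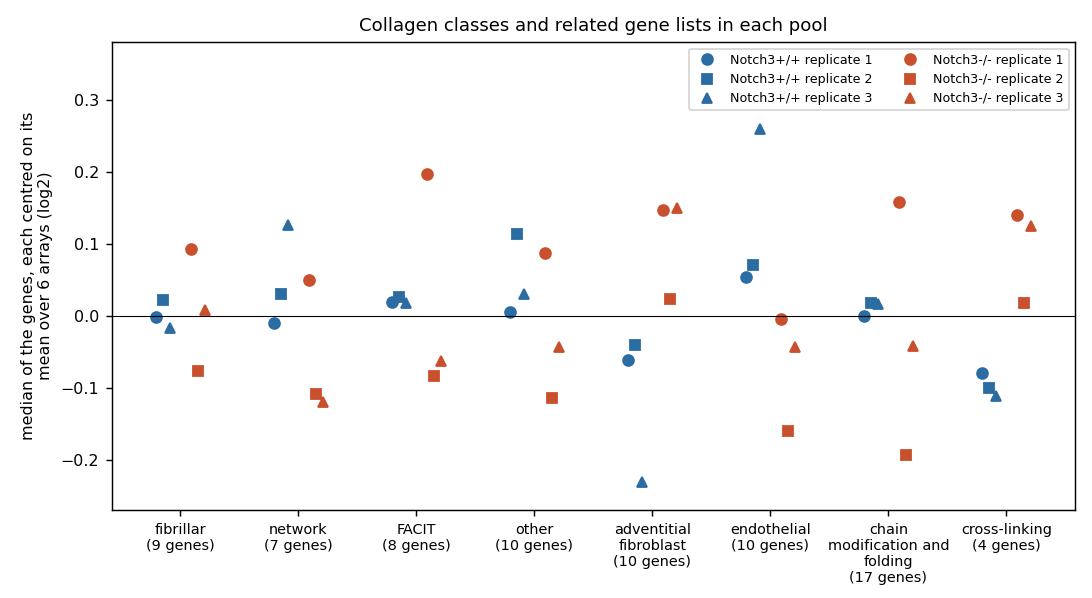
Median of the genes of each collagen class and of 4 related lists in each pool (vertical axis, log2 units, every gene centred on its mean over 6 arrays), with Notch3+/+ pools in blue and Notch3-/- pools in orange. All 4 collagen classes overlap between genotypes with Notch3-/- replicate 1 high, while fibroblast markers and cross-linking genes are higher and endothelial markers lower in all 3 Notch3-/- pools.

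Genes that act on collagen after the chains are made were read from fixed lists. Over all 12732 genes tested, 0.322% were called and 11.9% had an unadjusted p under 0.05 in limma. All Notch3-/- pools lay above all Notch3+/+ pools for 9.46% of them and below for 7.88%, so a lack of overlap is common. The enzymes and chaperones that modify and fold the chains showed 0 of 17 called and 1 at an unadjusted p under 0.05, with a median of -0.04 and 14 negative. That one was P3h2, a prolyl 3-hydroxylase of type IV collagen, which read 6.79, 6.71 and 6.87 against 6.53, 6.61 and 6.38 without overlap, a change of -0.28 (SE 0.091, adjusted p 0.332 in limma). Fkbp14, a folding enzyme, had 0.16 and the lysyl hydroxylase gene Plod2 0.13. As for the collagens, Notch3-/- replicate 2 held the lowest value for 11 of the 17. In the export list, 0 of 4 were called and the values were 0.27 for the vesicle coat gene Sec23a, 0.07 for Sec24d and -0.057 for Mia3.

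Genes for trimming and cross-linking were mostly on the positive side, and none passed. Of 6 propeptide removal genes, 5 were positive, 0 were called and 2 had an unadjusted p under 0.05. Pcolce2, an enhancer of the enzyme that removes the C-terminal propeptide, read 8.25, 8.46 and 7.90 in Notch3+/+ and 8.85, 8.99 and 8.92 in Notch3-/- pools. The groups did not overlap, and the change was 0.72 (SE 0.14, 1.64-fold higher) with an adjusted p of 0.138 in limma. Its relative Pcolce read 11.06, 11.15 and 10.94 against 11.41, 11.48 and 11.30, also without overlap, a change of 0.35 (SE 0.090, adjusted p 0.243 in limma). Tll1, a propeptide protease gene, had 0.21 at a mean of 3.86, just above the level filter. The 1 negative gene of the list was Bmp1, at -0.09 with a mean of 8.445.

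All 4 tested cross-linking genes of the lysyl oxidase family were positive, with a median of 0.17, 2 at an unadjusted p under 0.05 and 0 called in limma. Loxl1 read 9.98, 9.86 and 9.71 against 10.32, 10.11 and 10.34, a change of 0.41 (SE 0.10, adjusted p 0.240 in limma). Lox, the main collagen cross-linking enzyme, read 11.49, 11.59 and 11.41 against 11.77, 11.64 and 11.72, a change of 0.21 (SE 0.083, adjusted p 0.406 in limma). Neither gene overlapped between genotypes. Loxl4 had 0.12.

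Of 11 proteins that bind collagen fibrils, 9 were positive, the median was 0.037, and 1 was called, against 0.322% of all genes tested. Dpt, which encodes dermatopontin and also stands on the fibroblast list, rose by 0.58 (SE 0.080), from 9.90, 9.95 and 9.83 to 10.39, 10.50 and 10.54, with an adjusted p of 0.0499 in limma. No setting with 1 pool left out kept the call, as the adjusted p then lay between 0.0684 and 0.261. Fmod, the proteoglycan gene fibromodulin, had 0.41 (adjusted p 0.376) and Prelp 0.33 (adjusted p 0.404) in limma, and Dcn, Bgn, Lum and Sparc lay between -0.04 and 0.037.

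Of 5 collagen receptor genes tested, 0 were called in limma. Itga1, the collagen-binding integrin subunit of smooth muscle, read 7.75, 7.75 and 7.88 against 8.04, 8.49 and 8.30, without overlap, a change of 0.48 (SE 0.12, adjusted p 0.240). Its partner Itgb1 had -0.39 (adjusted p 0.492), or -0.15 without Notch3-/- replicate 2, and the discoidin receptor gene Ddr2 0.15. Of 5 breakdown and uptake genes, 0 were called, with values of -0.23 for the protease gene Fap, 0.25 for Mmp2 and 0.15 for Mmp14, and the last 2 ran from 0.15 to 0.35 and from 0.050 to 0.27 with 1 pool left out. The collagenase genes Mmp8 and Mmp13 were below the level filter.

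**Figure D5:**
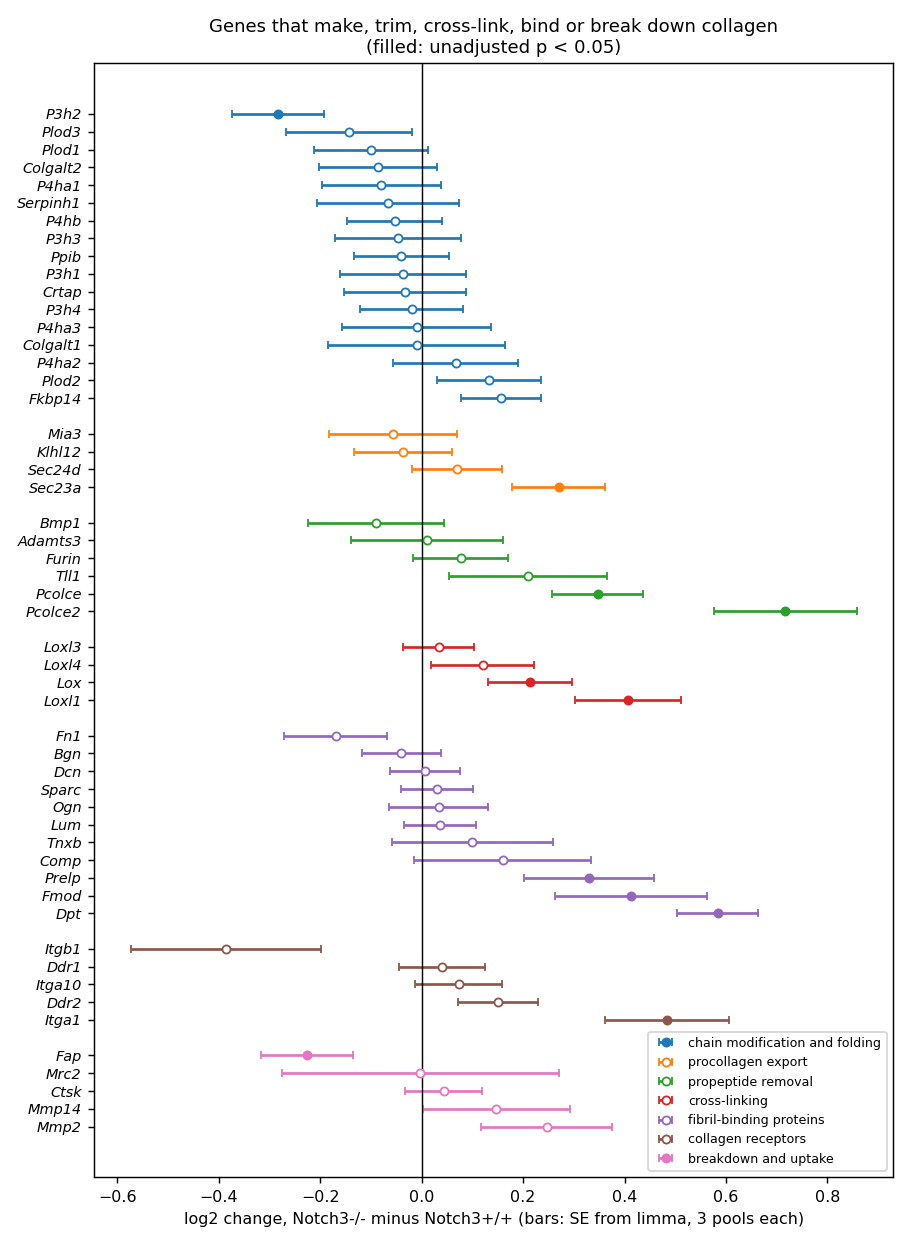
Log2 change (Notch3-/- minus Notch3+/+, horizontal axis) of the tested genes that modify, export, trim, cross-link, bind or break down collagen, grouped by list, with the standard error from limma over 3 pools of each genotype. Filled points have an unadjusted p under 0.05; Pcolce2 at 0.72 and Dpt at 0.58 lie farthest to the right.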

How the data were processed

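RNA from 6 pools of caudal arteries was hybridised to MOE430 2.0 Affymetrix chips after biotin labelling of cRNA made from 2.5 µg of total RNA, per the labels' protocols. The authors deposited 1 log2 value for each probe set and array, computed by RMA according to the submitters' processing notes. The RMA implementation was not given in the sources used here, and the scale was inferred from values between 1.38 and 13.38, with array medians of 4.50 to 4.57. Differences of very dim and very bright probe sets can be compressed in such values. No scanner files or detection calls were used here.

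Of 45101 probe sets, 64 controls were left out, and 34945 carried 1 gene symbol in the platform annotation, 932 several and 9160 none. Symbols were updated by gene number through RefSeq (GRCm38.p6), which matched 34741, and no collagen probe set carried several symbols. Probe sets with a mean below the 40th percentile (3.83) were left out. The rest were fitted with limma 3.58.1 in R 4.3.3 (lmFit and eBayes, genotype as the only term, two-sided p, Benjamini-Hochberg over 27027 probe sets). The fit was tested on simulated data, where it called 34% of 1.5-fold and 82% of 2-fold changes. Smaller changes, such as those of all 34 tested collagen genes, were not simulated, so 0 calls does not show that the collagen genes were unchanged.

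The members, classes and lists were chosen with earlier results of these data known. Values in every pool are given for Col1a1, Col1a2, Col3a1, Col4a1, Col4a2 and Col6a1 and, per class, for members with an unadjusted p under 0.05 or at least the 3 with the smallest p. Per list, called members and the 3 with the smallest p are named. Col12a1, further chains given by their change, dimmer probe sets and further list members were added after their values were seen. Protein sequences were not used here. The alternatives were the level filter, variance model, normalization, array weights, replicate block, choice of probe set, threshold and leaving out each pool.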

Additional observations from a re-analysis of the deposited data

How the results depend on the processing

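Of the 14 alternatives other than leaving out a pool, all except estimated array weights called 0 collagen genes, as did all 6 settings without 1 pool. With array weights, which gave Notch3-/- replicate 3 a weight of 3.04 and Notch3-/- replicate 2 one of 0.29, 978 of all probe sets were called in place of 68, and 3 collagen genes were: Col4a4 at -0.64, Col4a3 at -0.42 and Col27a1 at -0.37, while the collagen count at an unadjusted p under 0.05 went from 7 to 13 and the network median from -0.21 to -0.13. The network median was -0.12 with no level filter and with the filter at the 20th percentile, which let in dimmer genes. The fibrillar median was -0.047 with the mean over all probe sets of a gene and -0.0086 after a further quantile normalization. Leaving out 1 pool gave 3 to 8 collagen genes at an unadjusted p under 0.05 (3 without Notch3+/+ replicate 2 or Notch3-/- replicate 3, 4 without Notch3+/+ replicate 3), collagen medians from -0.11 to -0.0050, fibrillar medians from -0.068 to 0.063, network medians from -0.25 to -0.095, FACIT medians from -0.12 to 0.0067 and medians of the other collagens from -0.15 to -0.032.

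Some signs turned. The mean over probe sets gave Col11a1 -0.072 and Col6a2 -0.10, and the plain _at probe set gave Col1a2 0.037. A further quantile normalization gave Col5a2 -0.0086, Col13a1 -0.016 and Col6a2 -0.039. Array weights gave Col4a6 0.048, Col22a1 -0.032, Col6a2 -0.042 and Sec24d -0.0071, and weights by mice pooled gave Col13a1 -0.0043. Of the 34 collagen genes, 16 kept their sign under every alternative run, the second brightest probe set and pools left out included. Without 1 pool, Col12a1 ran from 0 to 0.42, Col1a1 from -0.11 to 0.053, Col6a1 from -0.19 to 0.030, Col4a6 from -0.36 to 0.033, Col16a1 from -0.18 to 0.10, Col5a3 from -0.092 to 0.16, Col13a1 from -0.068 to 0.062, Col22a1 from -0.067 to 0.078, Col9a1 from -0.21 to 0.052, Col7a1 from -0.083 to 0.010, Col6a4 from -0.072 to 0.028, Col6a2 from -0.028 to 0.050 and Mia3 from -0.19 to 0.020. The second brightest probe set, an alternative chosen after seeing the data, gave 5 collagen genes at an unadjusted p under 0.05 and turned the sign of Col11a1 (-0.34), Col1a2 (0.037), Col5a1 (0.053), Col4a5 (-0.11), Col23a1 (0.017) and Col6a2 (-0.22). Dpt also missed the threshold with no level filter, the 20th percentile, robust variances, a further quantile normalization, weights by mice pooled and the replicate block. The causes were not tested.

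With the replicate number as a block, 0 collagen genes were called, 5 had an unadjusted p under 0.05, and the collagen median was -0.067. Deviations of same-numbered pools correlated at 0.242, 0.046 and -0.067, and those of pools with different numbers at -0.174 to 0.143. With 3 pools per genotype, this cannot tell whether pools of the same number were handled together. The number of arrays limits the precision of every value.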
